A study of Rattus norvegicus with 132 samples.

Results

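The 6 genes Gclm, Sqstm1, Cat, Sod2, Gpx3 and Ugdh take part in the defence against reactive oxygen species, and several are known targets of the transcription factor NRF2. They were chosen by name from the 9271 genes of a spatial expression data set of rat kidney. All 6 were among the 8827 genes kept by a filter on low values, which asked that at least 10% of the regions of interest (ROIs) reach more than 2 times the signal of the negative probe. Signal was read from 132 ROIs by GeoMx spatial profiling, where probes bound to a tissue section carry barcodes that light releases from a chosen area and sequencing counts. The sections were formalin-fixed and embedded in paraffin, and they came from 3 rats in each of 4 groups labelled RM-HS, RM, HS and Sham. The series concerns acute kidney injury after trauma. RM and HS are not spelled out in the labels. In that field they are commonly short for rhabdomyolysis (breakdown of muscle) and hemorrhagic shock. Strain, sex, age, dose and time after injury were not given in the sources used here. Cortex, corticomedullary junction, glomeruli and medulla held 9, 8, 6 and 9 ROIs in RM-HS. They held 9, 8, 9 and 9 ROIs in RM and 9, 9, 5 and 6 in HS, and Sham had 9 in each area. The probes were designed for mouse transcripts, so the gene names are mouse symbols and a probe can bind its rat transcript more or less well. Signals of different genes are therefore not set against each other.

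NRF2, the product of Nfe2l2, is held in the cytoplasm and marked for degradation by KEAP1. Oxidants and electrophiles modify KEAP1, after which NRF2 enters the nucleus, pairs with a small MAF protein and binds antioxidant response elements. Gclm encodes the modifier subunit of glutamate-cysteine ligase, which makes the first step of glutathione synthesis, and is a classical NRF2 target. Sqstm1 encodes p62, an autophagy receptor that also binds KEAP1 and is itself a target of NRF2. Ugdh encodes UDP-glucose dehydrogenase, which supplies the glucuronic acid used to conjugate drugs and bile pigments. Sod2 encodes the manganese superoxide dismutase of mitochondria and is also induced by NF-kB. Cat encodes catalase, the hydrogen peroxide-splitting enzyme of peroxisomes, which are abundant in the proximal tubule. Gpx3 encodes the secreted glutathione peroxidase of plasma, a selenoprotein made largely by the proximal tubule.

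The promoters of 4 of these genes are shown because their signal, averaged over the areas, rose in both RM-HS and RM, and because the core of the antioxidant response element can be looked for in them. The core searched was TGACNNNGC on both strands, in the 300 bases from 250 before to 50 after the annotated start in RefSeq (rat assembly GRCr8). All 6 genes had an entry. Capitals mark a match, which in each case lay on the reverse strand of the sequence as written. Gclm lies at chr2:213031885-213032184 on the plus strand, with its match at -172 from the start. Ugdh lies at chr14:43202268-43202567 on the plus strand, with a match at -207. Sod2 lies at chr1:50050119-50050418 on the minus strand, with a match at -35. Sqstm1 lies at chr10:35037701-35038000 on the minus strand and had no match in this window.
Gclm: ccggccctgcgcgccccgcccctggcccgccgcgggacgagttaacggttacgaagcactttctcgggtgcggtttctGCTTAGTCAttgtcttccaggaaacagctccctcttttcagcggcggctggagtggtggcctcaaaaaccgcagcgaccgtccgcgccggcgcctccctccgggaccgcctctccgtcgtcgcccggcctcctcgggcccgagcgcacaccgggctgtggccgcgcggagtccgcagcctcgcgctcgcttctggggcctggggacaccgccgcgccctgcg
Ugdh: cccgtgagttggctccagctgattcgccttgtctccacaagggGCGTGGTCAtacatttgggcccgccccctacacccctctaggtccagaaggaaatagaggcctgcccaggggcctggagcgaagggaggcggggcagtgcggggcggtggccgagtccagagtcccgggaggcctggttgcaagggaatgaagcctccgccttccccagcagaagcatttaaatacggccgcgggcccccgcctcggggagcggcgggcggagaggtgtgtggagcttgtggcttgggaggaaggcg
Sod2: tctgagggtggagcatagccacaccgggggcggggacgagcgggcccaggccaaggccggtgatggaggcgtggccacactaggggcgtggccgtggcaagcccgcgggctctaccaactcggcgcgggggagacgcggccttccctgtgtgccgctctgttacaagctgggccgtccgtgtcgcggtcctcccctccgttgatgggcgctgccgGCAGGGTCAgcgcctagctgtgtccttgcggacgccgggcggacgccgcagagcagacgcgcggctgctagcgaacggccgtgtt
Sqstm1: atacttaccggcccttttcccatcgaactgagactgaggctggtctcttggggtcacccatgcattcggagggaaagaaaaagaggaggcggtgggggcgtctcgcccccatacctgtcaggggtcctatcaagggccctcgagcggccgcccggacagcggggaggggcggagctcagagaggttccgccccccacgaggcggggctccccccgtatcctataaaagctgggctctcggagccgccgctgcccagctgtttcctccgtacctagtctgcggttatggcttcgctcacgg
Cat and Gpx3 held no match either, so that 3 of the 6 promoters carried the core. Of 33469 RefSeq promoters of this length, 4038 (12.1%) did. A match is a run of letters and not a measured binding site.

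Values are the authors' signal after scaling each ROI to its upper quartile (Q3). Recovered reads ranged from 17894 to 2305964 per ROI, and glomerular ROIs were shallow, with a median of 93104 reads against 819487 in cortex. Depth also differed between the groups. Cortical medians were 920588 reads in RM-HS, 1097158 in RM and 414439 in HS, against 526350 in Sham. Glomerular medians were 130291.5 in RM-HS, 143427 in RM and 49405 in HS, against 79136 in Sham. The part of depth in the changes was not tested. Fold changes are on the log2(signal + 1) scale from a limma fit with 16 group and area means, a plate term and the well run as a random block. A gene was called when its adjusted p, by Benjamini-Hochberg over the 8827 genes, was under 0.05 (two-sided), and errors after a fold change are standard errors. The sample titles place the ROIs of each group in 3 runs of consecutive wells, numbered here by their order. The labels tie neither ROIs nor runs to animals. Some ROIs of a group share an animal, and the p-value of each test over ROIs is therefore too small. HS run 3 stood apart from the other HS runs, with a mean cortical Gpx3 signal of 12839 against 1976 and 1054 in runs 1 and 2, so HS changes are given with it and, after each gene, without it. Its cortex ROIs were also deeper, with 1105841 to 1872453 reads, against 187967 to 510154 in the other HS runs. HS run 3 had no medulla, but the fitted medullary values also moved when it was left out. Without it the correlation fitted for the well run block was 0.037, against 0.132 with all runs. Some calls of RM-HS and RM then changed while their fitted values hardly moved, and the part of the correlation in this was not tested. Among Sham runs, run 1 was low, with a mean cortical Gpx3 signal of 415 against 1625 and 2413. All HS ROIs were on plate E with only 12 Sham ROIs, so the separation of HS from plate rests on these, while RM-HS and RM were on plate C apart from 1 RM glomerulus on plate A. That glomerulus is in the levels and not in the fit. The plate term was called for none of the 6 genes, against 0.589% of all genes, and its largest member value was that of Cat at 0.78 ± 0.27 (adjusted p = 0.157, limma). RM-HS and RM share the same Sham ROIs. With the plate term, their averages over areas rest in effect on Sham runs 1 and 2, which were on plate C. The HS averages rest in effect on Sham run 3, which was on plate E. Changes by area also draw on the other Sham ROIs, through the plate term that all areas share. Levels, ranges and gaps are set against all Sham ROIs of an area.

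**Figure D1:**
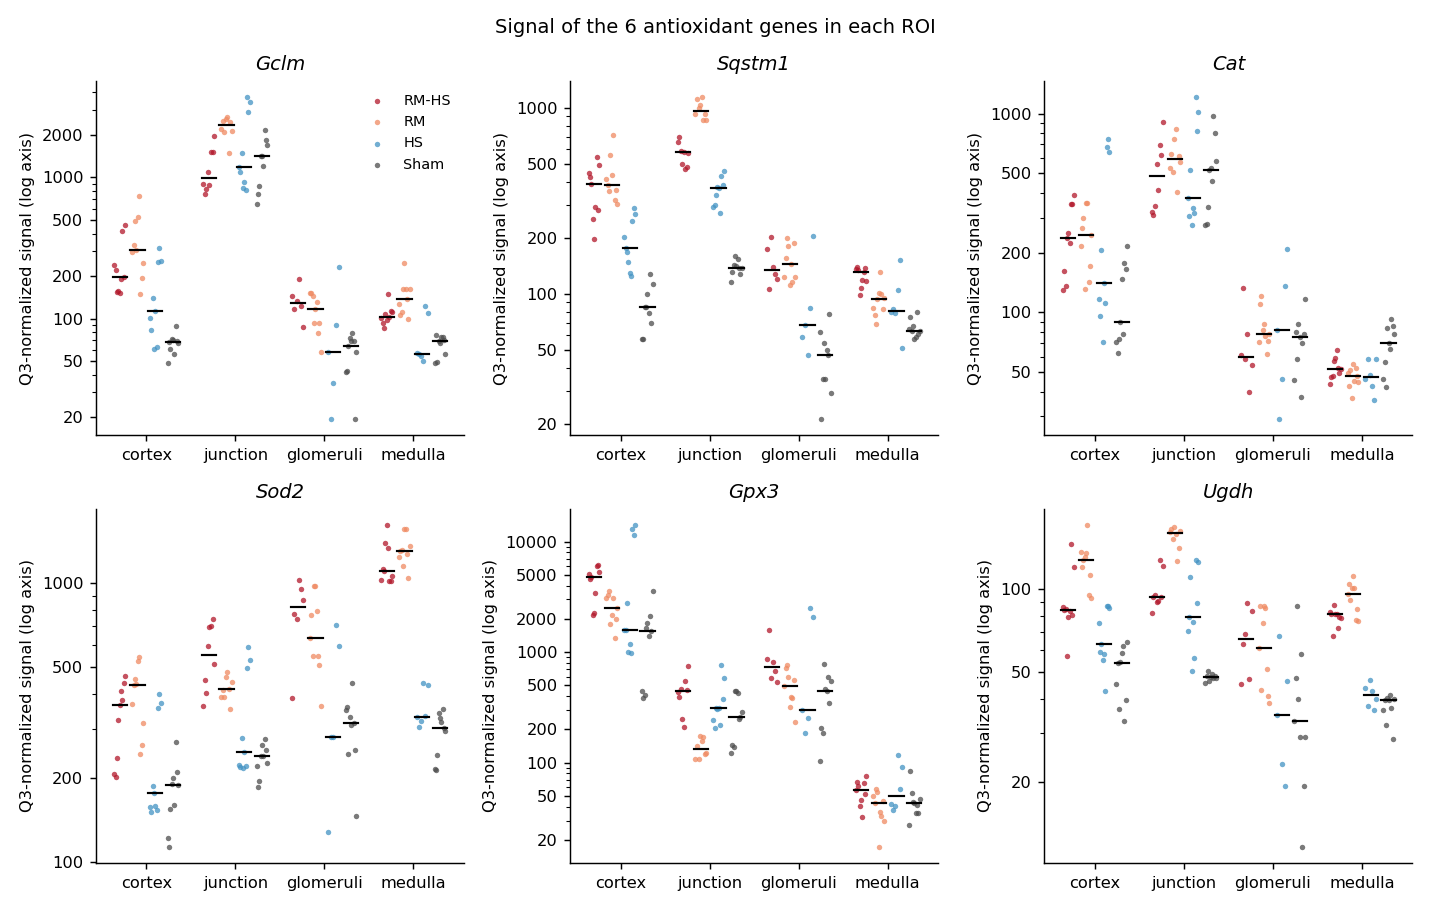
Q3-normalized signal (log axis) of each gene in every ROI, by kidney area; points are ROIs, colours are RM-HS, RM, HS and Sham from left to right in each area, and black bars are medians. Gclm and Cat were highest at the junction, Gpx3 in cortex, and Sod2 in the medulla of RM-HS and RM, while 3 HS cortex ROIs stand above the other HS cortex ROIs for Gpx3 and Cat.

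With the 4 areas averaged, 5 of the 6 genes rose in RM-HS against Sham, beside 5.99% of all genes. The median change of the 6 was 1.06, while that of all genes was -0.02. In RM 4 of the 6 rose, against 7.52% of all genes, with medians of 1.26 and -0.06. In HS only Sqstm1 rose, against 0.125% of all genes, with medians of 0.40 and -0.03. None fell in any of these comparisons, where 0.838%, 0.782% and 0.0453% of all genes fell in RM-HS, RM and HS. Area by area, 17 of 24 tests called a rise in RM-HS, 17 of 24 in RM and 4 of 24 in HS, and no test called a fall. By area, falls made up 0.204% to 1.46% of all genes in RM-HS, 0.227% to 2.76% in RM and 0% to 5.55% in HS. No fall among 6 genes is near those shares. In cortex all 6 genes rose in RM-HS and in RM, where 3.58% and 5.27% of all genes did. At the junction 3 rose in RM-HS (5.15% of all genes) and 4 in RM (4.86%), and there the median of all genes lay at -0.11 and -0.12. In glomeruli 5 rose in RM-HS (5.15%) and 4 in RM (10.1%). In medulla 3 rose in RM-HS (3.59%) and 3 in RM (4.84%). In HS cortex 1 rose (0.0793%) and at the HS junction 2 did (0.215%). Glomeruli of HS had 1 (3.97%) and HS medulla 0 (0.0453%). The change differed between the areas by an F test for 5 of the 6 genes in RM-HS (7.51% of all genes), 5 in RM (9.72%) and 2 in HS (13.6%). In HS medulla limma gave 1 of the 6 genes at an unadjusted p under 0.05, and edgeR called 0. When the ROIs were replaced by run means, 9 of the 17 RM-HS calls and 8 of the 17 RM calls by area passed, and none of the 4 HS calls. Those 9 were the 4 of Sqstm1, Gclm in cortex, and Sod2 and Ugdh at the junction and in medulla. The F test between areas then passed for Sqstm1 in RM only, in place of 5, 5 and 2 genes in RM-HS, RM and HS. On plate C alone the RM-HS averages were 0.94 for Gclm, 1.73 for Sqstm1, 0.42 for Cat, 1.40 for Sod2, 1.18 for Gpx3 and 0.82 for Ugdh. The RM averages there were 1.39, 1.89, 0.54, 1.38, 0.32 and 1.15 in the same order. In the main fit the plate term already sets the averages of RM-HS and RM beside the Sham ROIs of plate C. The plate C averages therefore had to lie close to those of the main fit and are no separate check.

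**Figure D2:**
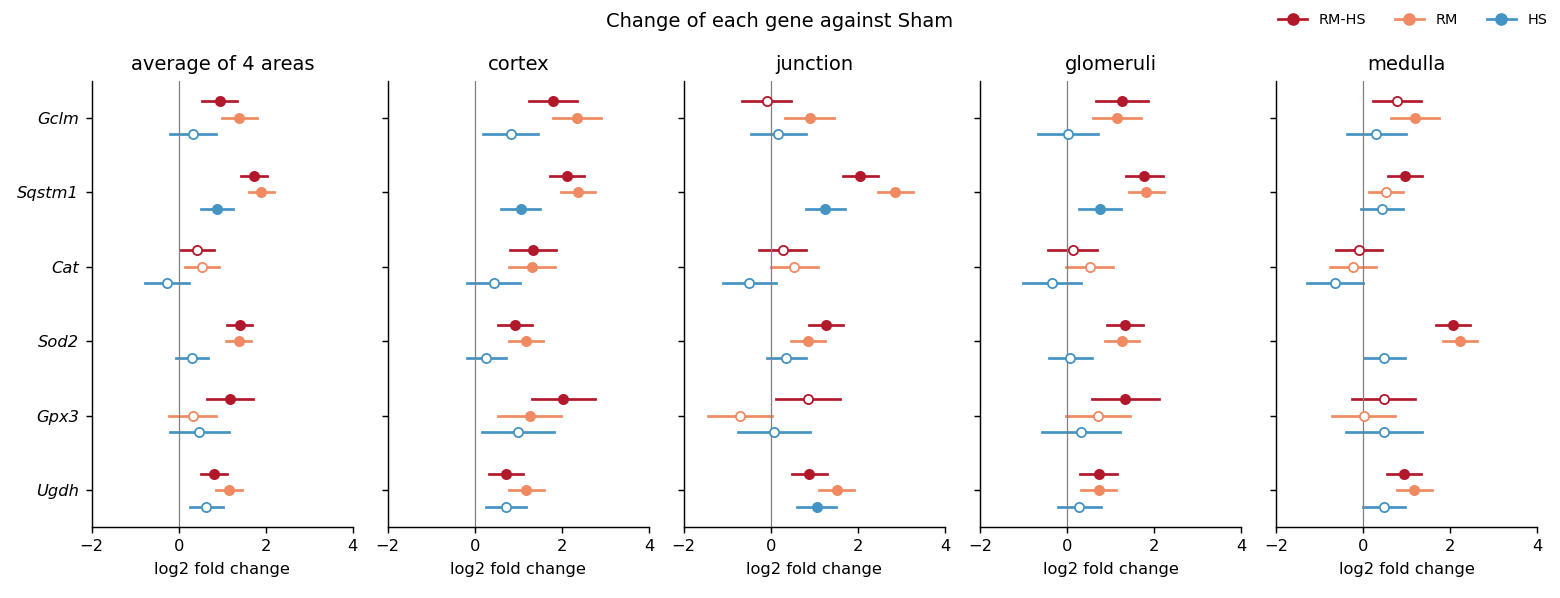
Log2 fold change of each gene against Sham, for the average of the 4 areas and for each area; points are fitted values of RM-HS, RM and HS from top to bottom, lines are 95% confidence intervals, and filled points passed the adjusted p threshold. Sqstm1 is filled in 4 areas for RM-HS and in 3 for RM and HS, Sod2 is furthest right in medulla, and Cat and Gpx3 are filled mainly in cortex.

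Fewer cells of a type and less RNA per cell cannot be told apart in ROIs that hold many cells. Marker levels moved with the groups in the tubular areas, and their part in the results below was not tested. Summed signal of 5 pan-proximal tubule markers had a median of 2894 in RM-HS cortex (2209 to 4929) and 3310 in RM cortex (2365 to 3669), against 1604 in Sham cortex (1051 to 3306). In HS cortex it had a median of 1832 with a highest ROI at 7741. At the junction the same sum had medians of 4016 in RM-HS, 6806 in RM and 1733 in HS, against 2517 in Sham. In the average over areas, Ass1, 1 of these markers, rose by 0.53 ± 0.17 in RM-HS. Other proximal tubule lists did not move alike at the junction. The sum of 5 convoluted proximal tubule markers had medians there of 358 in RM-HS, 342 in RM and 381 in HS, against 480 in Sham. For 4 straight proximal tubule markers the medians were 3679 in RM-HS, 3187 in RM and 2653 in HS, against 2656 in Sham. In cortex the convoluted sum had medians of 1135 in RM-HS, 1393 in RM and 946 in HS, against 724 in Sham. Its ranges there overlapped, at 930 to 1770 in RM-HS and 798 to 1574 in RM, against 542 to 1930 in Sham. The straight sum had cortical medians of 248 in RM-HS, 227 in RM and 265 in HS, against 224 in Sham. Thick ascending limb markers had lower summed medians in medulla, at 1328 in RM-HS, 834 in RM and 1446 in HS, against 2579 in Sham. At the junction they had 514 in RM-HS, 449.5 in RM and 583 in HS, against 975 in Sham. In the average over areas 1 of these 5 fell in RM-HS (Ppp1r1a by 0.63 ± 0.14) and 2 in RM (Ppp1r1a by 0.83 ± 0.13 and Slc12a1 by 0.68 ± 0.19). Collecting duct markers in medulla summed to medians of 369 in RM-HS, 246 in RM and 492.9 in HS, against 561 in Sham. Of these 3, Aqp2 fell in RM-HS and in RM (0.61 ± 0.21 and 0.61 ± 0.20). Podocyte markers, which define the glomerulus, summed to medians of 764, 777 and 698 in RM-HS, RM and HS glomeruli and 582 in Sham glomeruli. The same sum had a median of 206 in Sham cortex, 169 at the Sham junction and 178 in Sham medulla. Of 5 macrophage markers, 2 rose in RM-HS (Cd74 by 0.69 ± 0.20 and C1qc by 0.47 ± 0.14) and 1 in RM (Cd74 by 0.70 ± 0.20). Their summed signal ranged from 305 to 442 in RM-HS medulla and from 262 to 432 in RM medulla, against 209 to 326 in Sham medulla. The single neutrophil marker measured and the single erythroid marker measured passed the test in no injury.

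Most of the 6 genes differed between the areas in Sham, with fewer differences for Ugdh and Sod2. Junction and cortex differed past the threshold for 4 of the 6 (7.91% of all genes), glomeruli and cortex for 5 (38.4%), and medulla and cortex for 3 (11.7%). Glomeruli differed from the junction for 4 (37.7%), medulla from the junction for 4 (10.7%) and medulla from glomeruli for 2 (30.6%). In the injured groups junction and cortex differed for 5 in RM-HS (9.6%), 4 in RM (8.37%) and 5 in HS (9.03%). In RM-HS medulla and cortex differed for 5 (10.9%) and glomeruli and junction for 5 (25.9%).

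Gclm rose in cortex and glomeruli of both RM groups, and its changes were smallest at the junction, the area where it was already high in Sham. In cortex its lowest, median and highest signals were 152, 196 and 456 in RM-HS and 149, 305 and 733 in RM. They were 60.8, 112 and 314 in HS and 48.7, 67.7 and 88.6 in Sham. Each RM-HS and RM cortex ROI lay above the highest Sham ROI, while HS overlapped with Sham; such a gap above Sham was found for 1.11% of all genes in RM-HS cortex and 2.06% in RM cortex. The changes were 1.80 ± 0.28 in RM-HS (adjusted p = 5.24e-07) and 2.34 ± 0.28 in RM (adjusted p = 1.79e-11). HS had 0.83 ± 0.32 and did not pass.

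In glomeruli Gclm had 87.2, 128 and 190.0 in RM-HS and 58.2, 116 and 152 in RM. The 5 HS glomeruli had 19.4, 34.9, 58.2, 90.5 and 233, and Sham had 19.4, 64.0 and 78.9. All RM-HS glomeruli lay above Sham, a gap found for 0.227% of all genes, whereas RM and HS overlapped with Sham. Glomerular Gclm rested on few reads, with medians per ROI of 29.5 in RM-HS, 27 in RM, 5 in HS and 10 in Sham. The rises were 1.26 ± 0.30 in RM-HS and 1.15 ± 0.29 in RM (adjusted p = 0.00364 and 0.00230, limma), and HS had 0.01 ± 0.35. Medullary signal was 85.6, 102 and 150.1 in RM-HS, 98.9, 138 and 249 in RM and 50.4, 56.3 and 124 in HS, against 48.3, 69.5 and 76.3 in Sham. Both RM groups lay above Sham there without overlap (4.01% and 4.66% of all genes), and the change passed in RM at 1.18 ± 0.28 (adjusted p = 0.00151) and not in RM-HS at 0.78 ± 0.28 (adjusted p = 0.114).

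At the junction Gclm had 761, 994 and 1971 in RM-HS, 1482, 2339 and 2657 in RM, and 817, 1184 and 3699 in HS. Sham had 651, 1413 and 2149, so the ranges of all 4 groups overlapped. RM-HS had a change of -0.09 ± 0.29 (adjusted p = 0.885), with 3 of 8 ROIs above the Sham mean and none above the highest Sham ROI. RM rose by 0.89 ± 0.29 (adjusted p = 0.0429). Sham itself stood 4.21 ± 0.22 higher at the junction than in cortex (adjusted p = 4.05e-38). The Sham levels in cortex, glomeruli and medulla did not differ past the threshold, with gaps of -0.30 ± 0.22 for glomeruli against cortex and -0.04 ± 0.22 for medulla against cortex. The junction stood above cortex by 2.31 ± 0.23 in RM-HS, 2.75 ± 0.23 in RM and 3.55 ± 0.22 in HS. The F test of a difference between areas passed for the RM-HS effect (adjusted p = 1.87e-05) and the RM effect (adjusted p = 0.000991). Run means ended both (adjusted p = 0.147 for RM-HS and 0.496 for RM), and the RM result also ended without RM run 2 (adjusted p = 0.0608).

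The calls of Gclm that ended without Sham run 1 were the RM-HS average (0.94 ± 0.21, against 0.70 without it), RM-HS glomeruli (1.10 without it) and, for RM, junction (0.44), glomeruli (0.99) and medulla (1.01). RM glomeruli also lost the call without RM run 1 (0.93), and RM at the junction without RM-HS run 1 or 2, any RM run or Sham run 2 (adjusted p from 0.0538 to 0.167 in these 6 fits). RM-HS medulla passed without HS run 2 or HS run 3 (0.78 in both), on plate C alone (0.74) and in edgeR (0.83). The HS average was 0.33 ± 0.26 with all runs and -0.21 without HS run 3. By area the HS values without it were 0.30 in cortex, -0.40 at the junction, -0.75 for glomeruli and -0.01 for medulla, none past the threshold. Counts tested with edgeR gave 1.16 in RM-HS and 1.04 in RM glomeruli, neither past the threshold.

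Averaged over the areas, Sqstm1 was the 1 gene of the 6 called in all 3 injuries, and it rose in every area of RM-HS. In cortex it had 198, 388 and 541 in RM-HS, 305, 385 and 718 in RM, 124, 176 and 289.8 in HS and 57.1, 84.5 and 127 in Sham. Both RM groups lay above Sham without overlap, and HS reached into the Sham range. The changes were 2.12 ± 0.20 in RM-HS (adjusted p = 1.43e-16), 2.36 ± 0.20 in RM (adjusted p = 1.12e-19) and 1.05 ± 0.23 in HS (adjusted p = 0.0133, limma).

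At the junction the RM groups separated from each other as well as from Sham. Sqstm1 had 469, 576 and 699 in RM-HS, 859.9, 963 and 1143 in RM and 273, 372 and 460.2 in HS, against 116, 137 and 159 in Sham. All 3 injured groups lay above every Sham ROI, and every RM ROI lay above every RM-HS ROI; a gap above Sham was found for 4.64% of all genes in RM-HS, 5.09% in RM and 0.521% in HS. The rises were 2.05 ± 0.20 in RM-HS, 2.86 ± 0.20 in RM and 1.25 ± 0.23 in HS (adjusted p = 9.22e-16, 1.69e-25 and 0.000663, limma).

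In glomeruli Sqstm1 had 106, 133 and 201 in RM-HS and 111, 144 and 199.8 in RM. The 5 HS glomeruli had 46.5, 58.2, 67.85, 84.0 and 204, and Sham had 21.1, 46.5 and 77.5. RM-HS and RM lay wholly above Sham (0.351% of all genes for RM), and 3 of the 5 HS values lay within the Sham range. Median reads per ROI for glomerular Sqstm1 were 35.5 in RM-HS, 38 in RM, 7 in HS and 6 in Sham. The rises were 1.78 ± 0.21 in RM-HS (adjusted p = 1.72e-10) and 1.82 ± 0.20 in RM (adjusted p = 2.40e-12). HS had 0.76 ± 0.25 (adjusted p = 0.0370). In medulla Sqstm1 had 98.7, 131 and 139.6 in RM-HS, 68.5, 93.9 and 131 in RM and 50.9, 81.1 and 153 in HS, against 57.1, 62.9 and 80.2 in Sham. RM-HS alone lay above Sham without overlap and rose by 0.97 ± 0.20 (adjusted p = 0.000187), while RM had 0.53 ± 0.20 (adjusted p = 0.116) and HS 0.43 ± 0.24.

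The areas of Sqstm1 kept the order junction, cortex, medulla, glomeruli in Sham, with the junction 0.73 ± 0.16 above cortex and the medulla 0.60 ± 0.16 above glomeruli. Cortex and medulla were neighbours that did not differ past the threshold (-0.34 ± 0.16 for medulla against cortex). The effect differed between areas for RM-HS (adjusted p = 7.84e-05) and for RM (adjusted p = 4.05e-16) by the F test. For HS it passed at an adjusted p of 0.0405, which was 0.127, 0.0517 and 0.0717 without Sham run 1, 2 or 3 and 0.0194 without HS run 3. It also ended without RM-HS run 1 (0.0559), RM run 1 (0.0555), RM run 3 (0.0508) or HS run 1 (0.215), on plate E alone (0.562), under quantile normalization (0.256) and with run means (0.333). With run means the RM-HS result ended too (adjusted p = 0.0734). Averaged over areas, the rises were 1.73 ± 0.15 in RM-HS and 1.89 ± 0.15 in RM, and both passed without any single well run. The HS average was 0.87 ± 0.19 (adjusted p = 0.00750) and 0.63 without HS run 3 (adjusted p = 0.00103). On plate E alone it was 0.88, with an adjusted p of 0.9998, as no gene passed there. Without HS run 3 the cortical HS value was 0.79 (adjusted p = 0.0714), the glomerular one 0.30 (adjusted p = 0.352) and the junctional one 1.11 (adjusted p = 0.000189, limma). The medullary one was 0.30 and did not pass. The cortical HS call also ended without Sham run 1 (0.96) and Sham run 2 (1.06), and the glomerular one without Sham run 1 (0.71), without RM run 3 (0.75) and in edgeR (1.05). Sqstm1 in RM medulla passed without HS run 3 (0.53, adjusted p = 0.0201) and in edgeR (0.59).

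**Figure D3:**
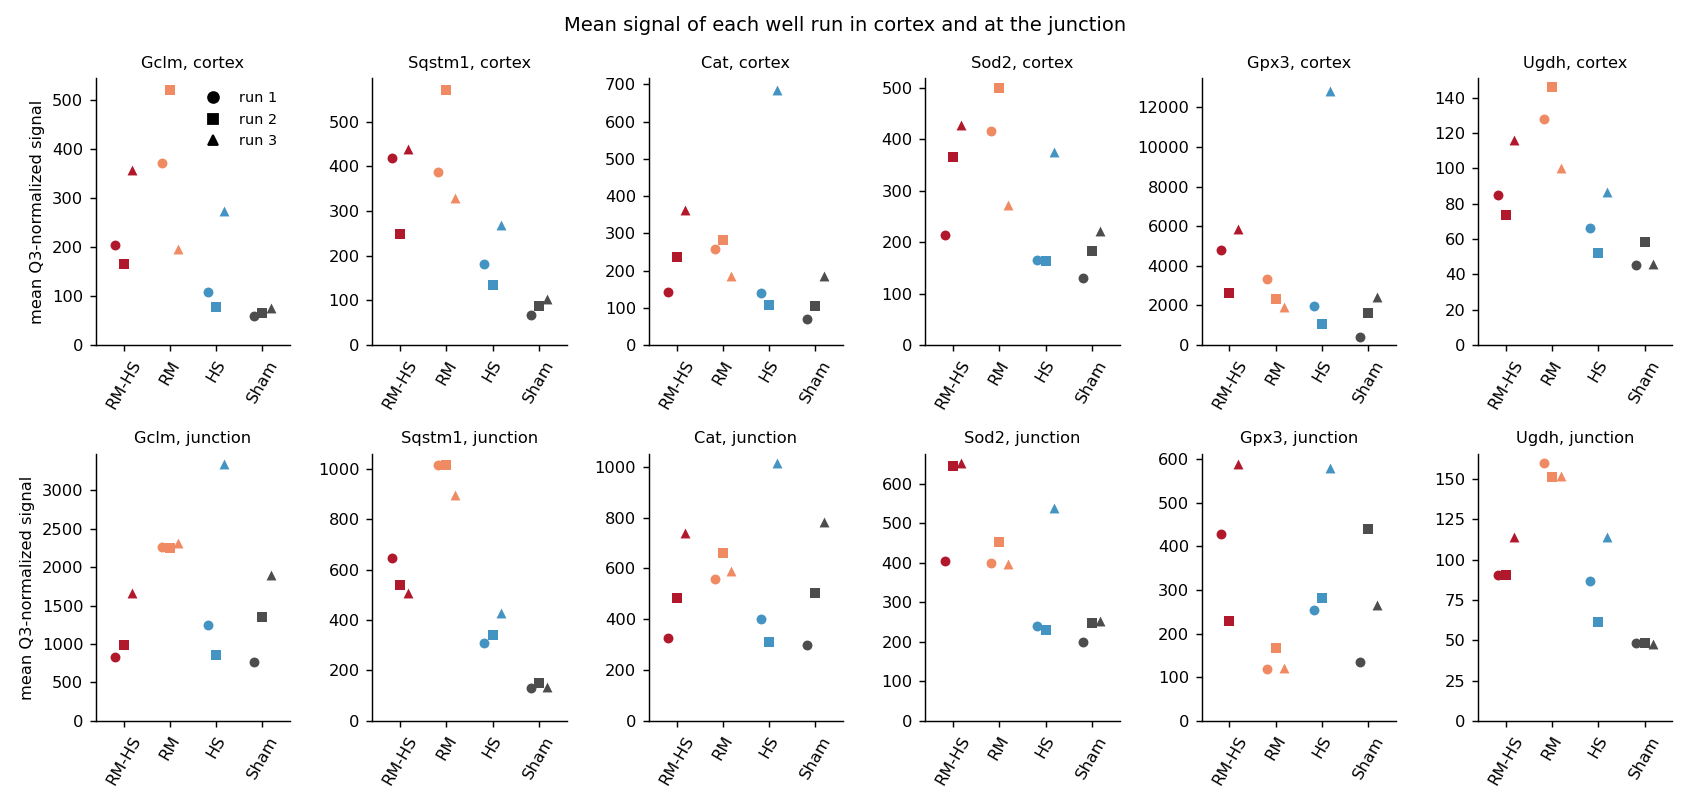
Mean Q3-normalized signal (linear axis from 0) of each gene in the 12 well runs, 3 per group, in cortex and at the junction; each point is 1 run mean, its shape gives the run number and colours are RM-HS, RM, HS and Sham. HS run 3 lies above the other HS runs for all 6 genes at the junction, and Sham run 1 lies below the other Sham runs for Gpx3 in cortex, at 415 against 1625 and 2413.

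Ugdh rose in every area of both RM groups. At the junction it had 82.3, 93.6 and 128 in RM-HS, 127, 160.0 and 169 in RM and 50.7, 79.7 and 128 in HS, against 45.9, 48.2 and 50.7 in Sham. All 3 injured groups lay above Sham, HS by 50.701 against 50.688 at the nearest pair of ROIs. The rises were 0.88 ± 0.21 in RM-HS, 1.51 ± 0.21 in RM and 1.05 ± 0.23 in HS (adjusted p = 0.00122, 2.57e-09 and 0.00966, limma). In medulla it had 67.85, 81.1 and 87.5 in RM-HS, 77.0, 95.9 and 112 in RM and 36.3, 41.3 and 47.0 in HS, against 28.6, 39.5 and 41.3 in Sham. Both RM groups lay above Sham and HS overlapped with it. The rises there were 0.94 ± 0.20 in RM-HS and 1.18 ± 0.20 in RM (adjusted p = 0.000393 and 2.97e-06), and HS had 0.48 ± 0.25.

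Cortical Ugdh was 57.3, 84.0 and 147 in RM-HS, 93.2, 128 and 171 in RM and 42.9, 63.4 and 87.2 in HS, against 33.2, 53.9 and 64.6 in Sham. Only RM lay above Sham without overlap, and it rose by 1.19 ± 0.20 (adjusted p = 3.54e-06). RM-HS rose by 0.72 ± 0.20 (adjusted p = 0.0185), a call that ended without RM-HS run 3 (0.55), Sham run 1 (0.58) or Sham run 2 (0.79). In glomeruli the signal was 45.2, 66.1 and 89.2 in RM-HS and 38.8, 61.4 and 87.2 in RM. The HS glomeruli had 19.4, 23.3, 34.9, 46.5 and 67.85, and Sham had 11.6, 33.2 and 87.2. These ranges overlapped, and the Ugdh signal there rested on a median of 3 reads per ROI in HS and 8 in Sham. The rise of 0.73 in both RM groups (SE 0.22 in RM-HS and 0.21 in RM) ended without RM-HS run 2 (0.69), RM-HS run 3 (0.61) or Sham run 3 (0.44) for RM-HS, and without RM run 2 (0.51) or Sham run 3 (0.45) for RM. In edgeR it was 0.52 in both and did not pass.

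Ugdh differed little by area in Sham, where glomeruli had -0.50 ± 0.16 against cortex and -0.48 ± 0.16 against the junction and the other pairs did not pass. Its Sham signal was low, with medians of 1.90, 2.04, 2.08 and 2.04 times the negative probe in cortex, junction, glomeruli and medulla. How far this narrowed the differences of Ugdh was not tested. Its RM-HS effect did not pass the F test between areas (adjusted p = 0.904). The RM effect missed the threshold (adjusted p = 0.0841) and passed it in edgeR (adjusted p = 0.0129), with a pseudocount of 5 (adjusted p = 0.0388), under quantile normalization (adjusted p = 0.0019), on plate C alone (adjusted p = 5.67e-05) and without Sham run 3 (adjusted p = 0.00062) or HS run 2 (adjusted p = 0.0461). The HS effect did not pass, and passed in edgeR (adjusted p = 0.0144) and without Sham run 3 (adjusted p = 0.00287) or HS run 2 (adjusted p = 0.00516). Averaged over areas, Ugdh rose by 0.82 ± 0.15 in RM-HS and by 1.15 ± 0.15 in RM (adjusted p = 1.56e-05 and 2.58e-10), with each single well run left out in turn as well. HS had 0.63 ± 0.19 (adjusted p = 0.259) and 0.55 without HS run 3, where it passed (adjusted p = 0.00739), as it did without HS run 2 (0.71). The junctional HS rise was 0.83 without HS run 3 (adjusted p = 0.0175, limma) and ended without Sham run 2 (0.97) and on plate E alone (0.79). Without HS run 3 the cortical HS value was 0.52, the glomerular one 0.43 and the medullary one 0.41, none past the threshold.

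Sod2 had the widest medullary change of the 6 genes in both RM groups. In medulla it had 1016, 1107 and 1617 in RM-HS and 1045, 1299 and 1567 in RM. HS had 304, 332 and 438, and Sham had 214, 303 and 353. The lowest RM-HS and RM medulla ROIs lay above the highest HS and Sham ROIs, and HS overlapped with Sham. The rises were 2.07 ± 0.20 in RM-HS (adjusted p = 2.47e-16) and 2.22 ± 0.20 in RM (adjusted p = 5.07e-18), while HS had 0.49 ± 0.24 (adjusted p = 0.734).

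In glomeruli Sod2 had 388, 822 and 1024 in RM-HS and 362, 633 and 979 in RM. The HS glomeruli had 128, 279, 281, 593 and 704, and Sham had 145, 314 and 436. RM-HS and RM were high with an overlap at their lowest ROIs, and 2 HS glomeruli lay above the Sham range. The rises were 1.33 ± 0.21 in RM-HS and 1.26 ± 0.20 in RM (adjusted p = 3.30e-06 and 1.02e-06, limma). At the junction Sod2 had 363, 553 and 744 in RM-HS, 352, 415 and 481 in RM and 218, 247 and 589 in HS, against 186, 239 and 276 in Sham. Both RM groups lay above Sham without overlap. The rises were 1.26 ± 0.20 in RM-HS and 0.86 ± 0.20 in RM (adjusted p = 4.25e-07 and 0.00159), the RM call ending without Sham run 1 (0.67) and under quantile normalization (0.31).

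Cortical Sod2 overlapped between all groups, at 202, 364 and 463 in RM-HS, 243, 429 and 542 in RM and 151, 177 and 399 in HS, against 113, 188 and 269 in Sham. It rose by 0.92 ± 0.20 in RM-HS and by 1.17 ± 0.20 in RM (adjusted p = 0.000680 and 3.27e-06). The RM-HS call ended without RM-HS run 3 (0.72), without Sham run 1 (0.63) and under quantile normalization (0.45). The 3 highest HS cortex ROIs belonged to HS run 3, whose mean was 375 against 165 and 163 in the other HS runs. In Sham, glomeruli and medulla stood above cortex by 0.76 ± 0.16 and 0.72 ± 0.16 and did not differ from each other past the threshold (-0.04 ± 0.16 for medulla against glomeruli). In RM-HS the order was medulla, glomeruli, junction, cortex, with medulla 1.86 ± 0.16 above cortex and no difference past the threshold between glomeruli and junction (0.41 ± 0.18). The effect differed between areas in RM-HS (adjusted p = 0.000503) and in RM (adjusted p = 5.11e-06), and both results ended with run means (adjusted p = 0.62 and 0.409). Averaged over areas, Sod2 rose by 1.40 ± 0.15 in RM-HS and by 1.38 ± 0.15 in RM, and both passed without any single run; HS had 0.30 ± 0.19, and -0.11 without HS run 3. Without that run Sod2 in HS was at -0.14 in cortex, -0.05 at the junction, -0.51 for glomeruli and 0.26 for medulla, and none passed.

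Cat rose in cortex of both RM groups and in no other area. In cortex it had 129, 237 and 390.0 in RM-HS, 131, 245 and 357 in RM and 71.4, 140.2 and 741 in HS, against 62.4, 89.3 and 215 in Sham. The ranges overlapped, with 6 of 9 RM-HS ROIs above the highest Sham ROI. The rises were 1.33 ± 0.27 in RM-HS and 1.32 ± 0.27 in RM (adjusted p = 0.000251 and 0.000147, limma). They ended without Sham run 1 (1.01 in RM-HS and 1.005 in RM), whose mean was 68.9 against 105 and 186 in the other Sham runs, and the RM-HS call also ended without RM-HS run 3 (1.01).

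At the junction Cat had 308, 485 and 909 in RM-HS, 404, 591 and 833 in RM and 274, 378 and 1209 in HS, against 276, 519 and 968 in Sham. All groups overlapped and none passed, with 0.27 in RM-HS, 0.54 in RM and -0.49 in HS. In medulla it had 43.7, 52.0 and 64.9 in RM-HS, 37.0, 48.0 and 55.3 in RM and 36.3, 47.2 and 58.2 in HS, against 42.3, 69.9 and 92.5 in Sham. No injured medulla ROI reached the Sham mean, and the changes of -0.08, -0.23 and -0.64 in RM-HS, RM and HS did not pass. The Sham run means there were 48.3, 73.1 and 85.2, so Sham run 1 was as low as the injured groups. Medullary medians of Cat were 2.20, 2.60 and 2.64 times the negative probe in RM-HS, RM and HS. Glomerular Cat was 40.0, 59.8 and 132 in RM-HS and 61.6, 77.5 and 121 in RM, with 29.1, 46.5, 81.4, 136 and 209 in the HS glomeruli and 37.4, 75.6 and 116 in Sham. The groups overlapped there, and the changes of 0.13, 0.53 and -0.35 did not pass.

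In Sham the junction stood 2.15 ± 0.21 above cortex for Cat, and glomeruli and medulla had -0.66 ± 0.21 and -0.70 ± 0.21 against cortex without a difference between them past the threshold. The effect differed between areas in RM-HS (adjusted p = 0.00104), RM (adjusted p = 0.000662) and HS (adjusted p = 0.0300), the last ending without Sham run 1 (adjusted p = 0.0976), Sham run 2 (0.124) or HS run 3 (0.286) and on plate E alone (0.811). The RM-HS result ended without RM-HS run 3 (adjusted p = 0.0655), and run means ended all 3 (adjusted p = 0.482 in RM-HS, 0.489 in RM and 0.519 in HS). The averages over areas were 0.41 ± 0.20 in RM-HS (adjusted p = 0.285) and 0.54 ± 0.20 in RM (adjusted p = 0.0790). Both passed without HS run 3 (0.42 and 0.54, adjusted p = 0.00872 and 0.000276, limma) and on plate C alone (adjusted p = 0.0171 and 0.000976, limma). The values without HS run 3 were thus close to those with all runs. HS had -0.26 ± 0.25 with all runs and fell by 0.85 without HS run 3 (adjusted p = 0.000200). By area, Cat in HS without run 3 also passed as lower, for the junction (-1.002), the glomeruli (-1.004) and the medulla (-0.9965), and cortex had -0.41. The RM average also passed without HS run 2 (0.54) or Sham run 2 (0.78), and RM glomeruli without HS run 3 (0.53). Cortical Cat in HS run 3 averaged 685, against 139.7 and 108 in the other HS runs.

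Gpx3 was high in RM-HS cortex and had the largest standard errors of the 6 genes. In cortex it had 2169, 4802 and 6188 in RM-HS, 1344, 2489.6 and 3609 in RM and 973, 1587.5 and 14173 in HS, against 387, 1552 and 3579 in Sham. All ranges overlapped, with 6 of 9 RM-HS ROIs, 1 of 9 RM ROIs and 3 of 9 HS ROIs above the highest Sham ROI. It rose by 2.03 ± 0.37 in RM-HS and by 1.26 ± 0.37 in RM (adjusted p = 2.36e-05 and 0.0187, limma), and HS had 0.99 ± 0.42 with all runs and -0.06 without HS run 3. Without Sham run 1 the values were 1.06 in RM-HS and 0.29 in RM (adjusted p = 0.449 and 0.995). The RM call also ended without RM run 1 (1.03) or RM run 2 (1.305) and under quantile normalization (0.56).

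In glomeruli Gpx3 had 534, 741 and 1581 in RM-HS and 233, 491 and 766 in RM. The HS glomeruli had 184, 256, 302, 2094 and 2514, and Sham had 104, 449 and 785. The groups overlapped, and the 2 highest HS values stood far above the other 3. RM-HS rose by 1.34 ± 0.39 (adjusted p = 0.0215), a call that ended without RM-HS run 1 (1.28), RM-HS run 2 (1.18) or Sham run 1 (0.54) and in edgeR (1.12). RM had 0.71 with all runs and passed without Sham run 2 (1.45). Summed pan-proximal tubule markers in glomeruli had medians of 666 in RM-HS, 717 in RM and 419 in HS, against 389.65 in Sham.

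At the junction Gpx3 had 209, 446 and 754 in RM-HS, 107, 133 and 176 in RM and 205, 309.7 and 772 in HS, against 122, 259 and 446 in Sham. RM was low, with 3 of 8 ROIs below the lowest Sham ROI and none above the Sham mean. The changes were 0.85 ± 0.37 in RM-HS (adjusted p = 0.223) and -0.71 ± 0.37 in RM (adjusted p = 0.373). Without Sham run 1 the RM value was -1.39 and passed (adjusted p = 0.0415), and without Sham run 2 the RM-HS value was 1.67 and passed (adjusted p = 0.00794). The RM-HS value also passed without HS run 3 (0.87, adjusted p = 0.0272). In medulla Gpx3 had medians of 57.1 in RM-HS, 43.6 in RM, 50.2 in HS and 43.4 in Sham, which were 2.30, 2.01, 3.05 and 2.25 times the negative probe, and no change passed.

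The order of Gpx3 in Sham was cortex, glomeruli, junction, medulla. Medulla had -4.68 ± 0.29 against cortex, and glomeruli and junction did not differ past the threshold (0.48 ± 0.29 for glomeruli against junction). Cortex exceeded the junction in all 4 groups, with the junction at -3.37 ± 0.30 against cortex in RM-HS, -4.16 ± 0.30 in RM and -3.12 ± 0.29 in HS, and at -2.20 ± 0.29 in Sham. The F test between areas passed for RM-HS (adjusted p = 0.0248) and RM (adjusted p = 0.000991) and not for HS. The RM-HS result ended without Sham run 1 (adjusted p = 0.461), RM-HS run 1 (0.108) or RM-HS run 3 (0.0672), under quantile normalization (0.197), without the block (0.166), in edgeR (0.259) and with run means (0.867). The RM result ended without RM run 1 (0.0711), in edgeR (0.0527) and with run means (0.649), and HS passed without HS run 2 (0.00782). Averaged over areas, Gpx3 rose by 1.18 ± 0.27 in RM-HS (adjusted p = 0.00103), a call that ended without Sham run 1 (0.53, adjusted p = 0.923), and had 0.32 ± 0.27 in RM. HS had 0.47 ± 0.35, and -0.30 without HS run 3, when the junction had -0.29, glomeruli -0.88 and medulla 0.05, none past the threshold. Single runs also moved calls in HS cortex. Without HS run 2, Gclm (1.21), Gpx3 (1.74) and Ugdh (0.89) passed there. Without Sham run 3, the Sham run of plate E, no plate term could be fitted, and Gclm (1.04), Cat (1.33), Gpx3 (1.85) and the HS average of Gpx3 (1.02) passed. Counts in edgeR, fitted with HS run 3 and without the well run block, called 5 of the 6 genes in HS cortex. No share of all genes is given for edgeR there.

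RM-HS was set against RM to ask what HS added to RM. Averaged over areas none of the 6 genes passed in limma, against 0.227% of all genes, although 3 had an unadjusted p under 0.05 and edgeR called 3. At the junction 2 of the 6 passed, against 0.408%. There Sqstm1 was lower in RM-HS than in RM, with a log2 difference of -0.81 ± 0.20 (adjusted p = 0.0215), and Gpx3 was higher, with 1.56 ± 0.36 (adjusted p = 0.0109, limma). The junctional ranges of both genes did not overlap, as every RM-HS ROI was below every RM ROI for Sqstm1 (0.566% of all genes) and above every RM ROI for Gpx3 (0.521%). Gclm had -0.98 ± 0.28 (adjusted p = 0.0981) and Ugdh -0.63 ± 0.20 (adjusted p = 0.222) at the junction. On plate C alone, which holds both groups without the HS ROIs, these 2 also passed there (-0.99 and -0.64). So did the averages of Gclm (-0.45), Gpx3 (0.86) and Ugdh (-0.34), so that 7 tests passed in place of 2. The Sqstm1 call at the junction ended without RM-HS run 2 or 3 or RM run 1 or 2, and the Gpx3 call without RM-HS run 1 or 3 or RM run 1 or 3. In cortex limma called 0% of all genes and edgeR 0 of the 6, while 3 of the 6 had an unadjusted p under 0.05. In glomeruli (1.89%) and medulla (0.589%) limma and edgeR called 0 of the 6, with 0 and 1 at an unadjusted p under 0.05.

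RM-HS and RM were also set against HS. Averaged over areas Sqstm1 was higher by 0.86 ± 0.24 in RM-HS and by 1.02 ± 0.24 in RM than in HS (adjusted p = 0.0458 and 0.00375). Sod2 was higher by 1.10 ± 0.24 in RM-HS and by 1.08 ± 0.24 in RM (adjusted p = 0.00238 and 0.00163). These were 2 of 6 genes in each comparison, against 1.06% and 2.35% of all genes. In medulla Sod2 was 1.57 ± 0.28 higher in RM-HS (1.94% of all genes) and 1.73 ± 0.28 higher in RM (3.39%), and at the junction Sqstm1 was 1.61 ± 0.27 higher in RM (1.3%). These 3 passed without any single well run. The calls of the averages ended without Sham run 1 for RM (Sqstm1 0.92, Sod2 0.89) and RM-HS (0.75 and 0.91), for RM-HS Sod2 also without HS run 1 (0.84), and for RM-HS Sqstm1 without 9 of the 12 runs. Without HS run 3, 22 of 30 tests over the areas and their average passed for RM-HS and 24 of 30 for RM, in place of 6 and 8. No share of all genes is given for that fit, so these counts are not a result about the 6 genes. Its block correlation was 0.037, against 0.132 with all runs. The interaction asked whether RM-HS departed from the sum of the RM and HS effects on the log2 scale, and 2 of 6 genes fell short of it, against 0.0793% of all genes. Sqstm1 lay under that sum, with -1.03 ± 0.23 (adjusted p = 0.0215), and so did Ugdh, with -0.97 ± 0.23 (adjusted p = 0.0494). Without HS run 3 the values were -0.79 for Sqstm1 and -0.89 for Ugdh, both past the threshold, and Cat at 0.73 and Gpx3 at 1.16 passed too. The Sqstm1 call ended without RM-HS run 2 or 3 or RM run 1 or 2, and the Ugdh call without 8 of the 12 runs.

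The wider pathway was described with 10 lists of related genes, counted without the 6 genes above and averaged over the areas. Their counts stand beside the shares of all genes that rose, 5.99% in RM-HS, 7.52% in RM and 0.125% in HS, so that 1 gene of a list of 9 or 10 is near the share of all genes. Of 8 genes for NRF2 and its regulators, 3 rose in RM-HS, 3 in RM and none in HS, with list medians of 0.29, 0.29 and 0.06. Nfe2l2, which encodes NRF2, rose by 0.64 ± 0.12 in RM-HS (adjusted p = 9.59e-06) and by 0.71 ± 0.12 in RM (adjusted p = 4.04e-07). Maff and Mafg, which encode small MAF partners, rose by 0.77 ± 0.16 and 0.50 ± 0.14 in RM-HS and by 1.10 ± 0.15 and 0.59 ± 0.14 in RM. Of 10 genes for glutathione synthesis and recycling, 1 rose in RM-HS (Ggct by 0.81 ± 0.15) and 4 in RM, with medians of 0.18 and 0.24. Those in RM included Slc7a11, the cystine carrier (0.72 ± 0.16), and Gss, glutathione synthetase (0.50 ± 0.17). Of 4 superoxide and peroxide enzymes, Sod1 rose in RM-HS (0.75 ± 0.18), and Sod1 (1.07 ± 0.18) and Gpx2 (0.66 ± 0.20) rose in RM.

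Among 8 thioredoxin and peroxiredoxin genes, Txn1 and Txnip, which encode thioredoxin and a protein that binds it, rose in both RM groups. Txnip rose by 1.12 ± 0.21 in RM-HS and 0.89 ± 0.20 in RM, and Txn1 by 0.77 ± 0.19 and 0.99 ± 0.19. Of 6 NADPH-supplying enzymes 2 rose in each RM group, namely Taldo1 (0.63 ± 0.15 in RM-HS and 0.76 ± 0.15 in RM) and Tkt (0.51 ± 0.15 and 0.86 ± 0.15), both of the pentose phosphate pathway. Of 10 conjugation genes, Gsta3 rose in RM-HS (0.66 ± 0.20), and Ephx1 (0.90 ± 0.17) and Abcc2 (0.61 ± 0.14) rose in RM. Among 9 autophagy receptors and LC3 relatives, Gabarapl1 rose by 1.09 ± 0.15 in RM-HS and 1.13 ± 0.15 in RM, and Ubqln1 (0.54 ± 0.17) and Map1lc3a (0.45 ± 0.15) also passed in RM. In HS Gabarapl1 had 0.77 ± 0.19 (adjusted p = 0.0543). Of 5 NF-kB-induced genes Nfkbia (0.49 ± 0.16) and Nfkb1 (0.38 ± 0.10) rose in RM-HS and Nfkb1 (0.40 ± 0.10) in RM. None of 12 peroxisomal genes passed in limma, although 1 had an unadjusted p under 0.05 in each RM group and edgeR called 2 in each. Of 9 selenoprotein genes 1 rose, Selenof in RM (0.36 ± 0.12). Of the 79 genes in these lists 13 rose in RM-HS and 20 in RM. None fell in limma, where 0.838% of all genes fell in RM-HS, 0.782% in RM and 0.0453% in HS, so that no fall among 79 is near those shares. Falls numbered 1 at an unadjusted p under 0.05 in RM-HS, and edgeR called 2 falls in RM-HS and 2 in RM. In HS limma called 0, with 5 at an unadjusted p under 0.05, and edgeR called 3.

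**Figure D4:**
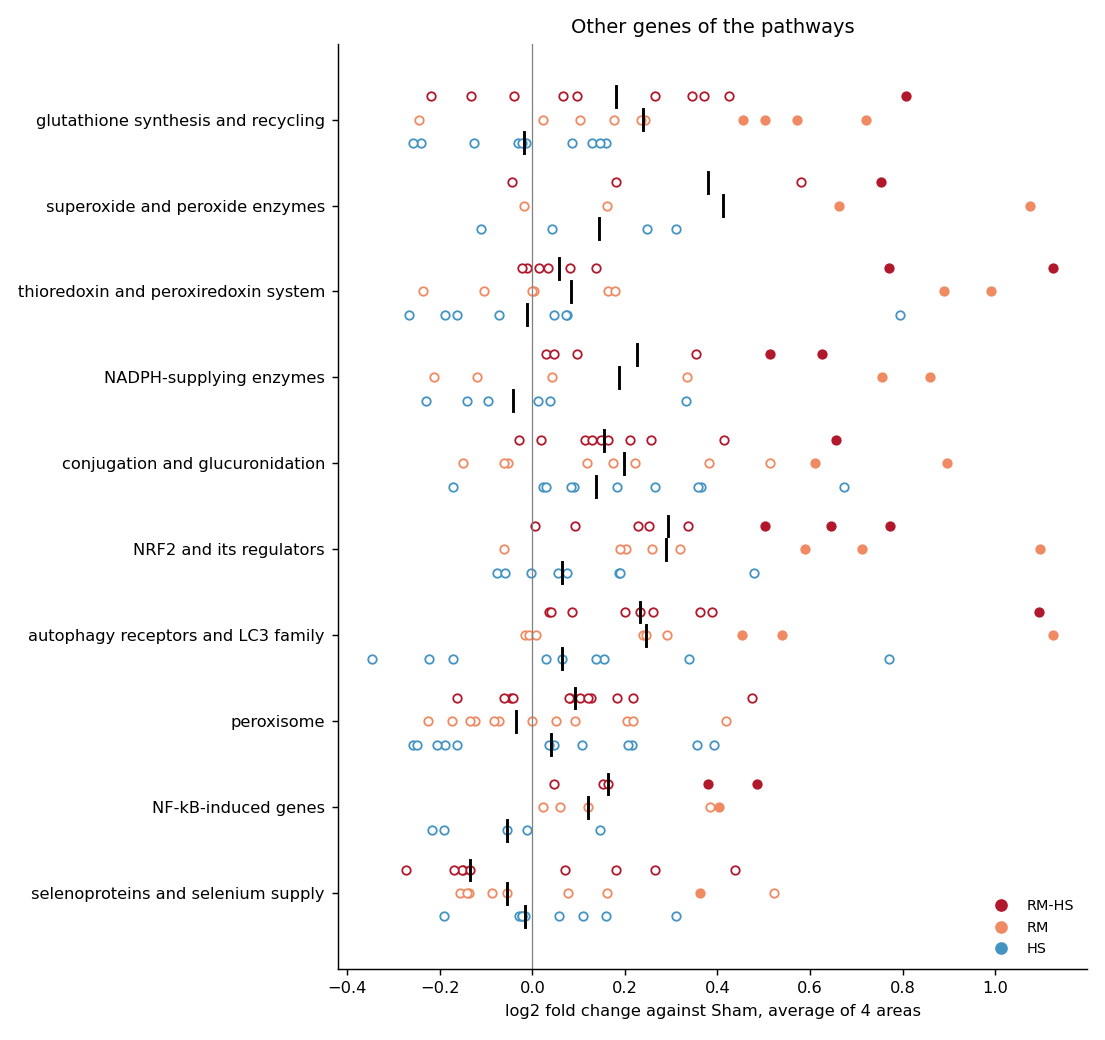
Log2 fold change against Sham, averaged over the 4 areas, of the genes in 10 pathway lists without the 6 genes described here, for RM-HS, RM and HS; each point is 1 gene, filled points passed the adjusted p threshold, and black bars are list medians. Filled points lie right of 0 in RM-HS and RM, HS has none, and list medians range from -0.14 to 0.41.

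Likeness of pattern was taken as Pearson's r over the 16 means of group and area, a description of points that share ROIs, depth and area. The gene most like Gclm was Gss (r = 0.96), followed by Cndp2 and Ppic. Sqstm1 was most like Ftl1, the ferritin light chain (0.96), Cat most like Smdt1 (0.98), Sod2 most like Spred3 (0.96), Gpx3 most like Ctsa (0.94) and Ugdh most like Psmd11 (0.95). Among the 6, Gclm and Cat were most alike (0.90), then Sqstm1 and Ugdh (0.87). Sod2 had its lowest values with Gpx3 (-0.45) and Cat (-0.39).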

How the data were processed

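Per the labels' protocols, mouse whole-transcriptome probes were hybridised to rat kidney sections and sequenced on a NovaSeq. The values deposited by the authors are signal, scaled so that the upper quartile of each ROI was 58.1573. Which aligner was used is not stated in any label or header, and the submitters' processing notes name the human builds GRCh38 and hg38. Whole reads were recovered for 100% of values (tolerance 0.001 reads). Genes were kept when at least 10% of ROIs exceeded 2 times the negative probe, which left out 444. In limma 3.58.1 (R 4.3.3, statmod 1.5.0), log2(signal + 1) of 131 ROIs was modelled with a random block for well run (correlation 0.132) and a variance trend. That correlation was 0.037 without HS run 3 and 0.063 on plate C alone. The 6 genes, the gene lists and the tests were chosen with earlier results of these data known. Genes most alike in pattern were named by the 3 highest Pearson correlations over the 16 means. List members were named by the largest called changes, up to 3 per list and injury, or without a call by the lowest p. Marker genes named above follow the same rule, except that the result of 1 marker is not reported here. Alternatives were a pseudocount of 5, no filter, a 50% filter (4233 genes), quantile normalization, no plate term, single plates, no block, run means, each run left out and edgeR 4.0.16 on the recovered counts. The edgeR fit had no well run block and took the ROIs of a run as independent. The code was checked on simulated data.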

Additional observations from a re-analysis of the deposited data

Results flagged for a closer look

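In 5 of 96 groups of 5 to 9 ROIs, the highest ROI stood far from the others by Dixon's criterion, and chance gives about 1 in 20. These were Gclm in RM-HS medulla (150.1) and RM medulla (248.8), Sqstm1 in HS glomeruli (203.6), and Gpx3 in RM-HS glomeruli (1581) and Sham medulla (84.96).

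The change against Sham differed between the 4 areas by the F test in limma, for RM-HS in Gclm (adjusted p = 1.87e-05), Sqstm1 (7.84e-05), Cat (0.00104), Sod2 (0.000503) and Gpx3 (0.0248). For RM it differed in Gclm (adjusted p = 0.000991), Sqstm1 (4.05e-16), Cat (0.000662), Sod2 (5.11e-06) and Gpx3 (0.000991). For HS it differed in Sqstm1 (adjusted p = 0.0405) and Cat (adjusted p = 0.0300). RM-HS departed from the sum of the separate RM and HS effects for Sqstm1 (-1.03) and Ugdh (-0.97).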

How the results depend on the processing

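No paired analysis was possible because the labels give no replicate numbers that groups share. Counts below are tests of the 6 genes past the threshold, and no shares of all genes are given for the alternative fits. With run means, the RM-HS average had 3 calls (5 with ROIs), RM-HS by area 9 (17), RM-HS between areas 0 (5), RM by area 8 (17), RM between areas 1 (5), RM against HS 1 (8), and each of the HS average (1), HS by area (4), HS between areas (2), RM-HS against RM (2), RM-HS against HS (6) and the interaction (2) had 0. Without the plate term, the HS average had 2, HS by area 7, RM-HS against HS 12, RM against HS 17 and the interaction 1. Plate E alone gave 0 for HS throughout, and plate C alone gave 7 for RM-HS against RM. Without the block, the HS average had 2, RM-HS against RM 5, RM-HS against HS 11 and RM against HS 15. With edgeR, HS by area had 7, RM-HS against RM 7 and RM against HS 13. Quantile normalization gave 1 for HS between areas, 4 for RM-HS against RM and 1 for the interaction, as did the 50% filter for the interaction. Leaving out each run gave 3 to 6 calls for the RM-HS average (3 without Sham run 1), 11 to 19 by area (11 without Sham run 1), 3 to 5 between areas (3 without RM-HS run 3), 4 to 5 for the RM average, 12 to 19 by area and 4 to 6 between areas. It gave 1 to 3 for the HS average (3 without HS run 3), 2 to 7 by area, 0 to 4 between areas, 0 to 7 for RM-HS against RM (0 without RM run 1), 1 to 22 for RM-HS against HS, 3 to 24 for RM against HS and 0 to 4 for the interaction. Without Sham run 3 no plate term could be fitted. Over 7278 values of 348 single results, 6760 kept their side of the threshold and 2 called results reversed. The 6760 include F tests, which have no direction, and uncalled results whose sign changed. An example of the latter is Gclm in the HS average, at 0.33 with all runs and -0.21 without HS run 3. The 2 reversed results were Sod2 in RM-HS medulla against glomeruli with quantile normalization (-0.27, against 0.69) and Ugdh in Sham glomeruli against junction with edgeR (0.045, against -0.48). The cause was not tested. Glomerular values are limited by depth, with a median of 93104 reads.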
